A study of Mus musculus with 21 samples.

Results

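Fibronectin, the thrombospondins and a set of matricellular genes were followed in mouse mammary epithelial cells treated with transforming growth factor beta 1 (TGF-b1). The 10 genes are Fn1, Thbs1, Thbs2, Tnc, Sparc, Postn, Tgfbi, Ccn2 (Ctgf in older annotation), Ccn1 (Cyr61) and Fbn1. They were matched to the arrays by gene symbol. In each of the array sets, 9 of the 10 genes were measured, among 18193 genes in NMuMG cells and 12393 genes in NM18 cells. Fbn1, which encodes the microfibril protein fibrillin, had no probe set annotated to that symbol alone and was not analysed here. A probe set is a group of short array probes for a transcript. Where a gene had several, the brightest on average across the arrays of that table stood for it, and the others served as a check.

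Fibronectin is a large secreted glycoprotein that cells assemble into fibrils and hold through integrins, and its increase is a standard sign of the epithelial to mesenchymal transition that TGF-b1 can start in mammary epithelium. Matricellular proteins (thrombospondins, tenascin-C, SPARC, periostin, TGFBI and the CCN family) are secreted into the matrix but act mainly on cells, growth factors and matrix assembly rather than as structural fibres. Thrombospondin-1 can activate latent TGF-b, and Ccn1 and Ccn2 are known targets of the YAP and TEAD transcription regulators as well as of TGF-b.

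The arrays were Affymetrix mouse gene expression arrays in a pair of sets with separate value tables. NMuMG, a normal mouse mammary gland epithelial line, was grown for 2 h in medium with 200 µM 4-thiouridine (4sU), a nucleoside that enters RNA made during that time. The 4 NMuMG groups of 3 biological replicates each were newly made (4sU-labelled, mercury-column-enriched) RNA from cells given 5 ng/ml TGF-b1, newly made RNA from control cells, total RNA from cells given TGF-b1, and total RNA from control cells. All NMuMG groups, controls included, carried 4sU. NM18, known as a subclone of NMuMG, was transfected with 25 nM siRNA for 48 h, with 5 ng/ml TGF-b1 present for the last 40 h where it was given. The 3 NM18 groups of 3 biological replicates each were FoxQ1 siRNA with TGF-b1, control (non-silencing) siRNA with TGF-b1, and control siRNA alone. FoxQ1 siRNA was analysed only together with TGF-b1, so its effect on unstimulated cells cannot be told apart from its effect on the response. The free-text note on the first array with control siRNA alone mentions TGF-b1, while its title and treatment label do not. The title was followed, and without that control array the number of genes that passed each NM18 test was still 5, 1 and 4.

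All values below are the deposited log2 expression values, on which a difference of 1 is 2-fold. The ± after a change is its standard error from limma, the ± after a level is the SD, and n = 3 arrays per group throughout. A gene was called at a limma Benjamini-Hochberg adjusted p under 0.05 over all genes of its table. The values come in separate tables with no stated normalization, so no level was compared between NMuMG and NM18. Foxq1, the siRNA target, read 7.57, 8.09 and 7.97 with FoxQ1 siRNA and TGF-b1, against 9.08, 9.04 and 9.33 with control siRNA and TGF-b1 and 7.91, 8.49 and 8.38 with control siRNA alone. It was lower with FoxQ1 siRNA by a log2 change of -1.27 ± 0.16 (adjusted p = 0.000291). Smad7 and Skil, feedback inhibitors that TGF-b induces within hours, rose in all 3 comparisons of TGF-b1 with its control, by 0.99 and 0.76 in newly made RNA at 2 h, 1.25 and 1.13 in total RNA at 2 h, and 0.94 and 1.00 at 40 h. Krt8, an epithelial keratin, averaged between 14.32 and 14.40 in the 3 NM18 groups, the top of the scale in that table, where the highest value of any probe set was 14.6.

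At 40 h Thbs1, Fn1, Ccn1, Ccn2 and Sparc were higher with TGF-b1 in NM18 cells. The test called 5 of the 9 measured genes higher and none lower, with 6 past an unadjusted p of 0.05. Of all genes in that comparison, 30.7% were called, and 13.2% were called higher. In 6 of the 9 genes all 3 TGF-b1 arrays lay above all 3 control arrays, as was the case for 19.3% of all genes. The median change of the 9 genes was 0.58, and that of all genes was 0.00. In bulk samples, a change in the share of cells that express a gene and a change in its RNA per cell cannot be told apart.

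Thbs1, thrombospondin-1, had the largest change of the 9. It read 12.57, 11.91 and 12.78 with TGF-b1, against 7.98, 9.03 and 8.48 with control siRNA alone. Every TGF-b1 array was well above every control array, and array 2 was the lowest of the treated and the highest of the control arrays. The log2 change was 3.92 ± 0.29, or 15.2-fold (adjusted p = 5.42e-06). Its other probe set, with lower values, gave 3.72 ± 0.30. Thbs2, the related thrombospondin-2, averaged 5.90 ± 0.08 with TGF-b1 and 5.91 ± 0.06 without. Its change of -0.01 had a 95% interval of -0.16 to 0.14.

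Fn1 read 13.67, 13.53 and 13.68 with TGF-b1, against 11.10, 12.75 and 11.36 with control siRNA alone. The treated arrays were close together, and control array 2 lay well above the other two control arrays but below every treated one. The log2 change was 1.89 ± 0.32, or 3.69-fold (adjusted p = 0.000873). Leaving out single arrays moved it between 1.57 and 2.39, the highest without control array 2. The other Fn1 probe set read 9.08, 9.45 and 9.23 with TGF-b1, against 6.70, 8.13 and 6.69 without, and also had its highest control value on array 2. It changed by 2.08 ± 0.33.

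Ccn1 and Ccn2, which encode secreted proteins that bind integrins and heparan sulphate, both rose about 2-fold. Ccn2, connective tissue growth factor, read 14.10, 13.80 and 14.13 with TGF-b1, against 12.90, 13.03 and 13.16 without. It rose by 0.98 ± 0.11 on the log2 scale (adjusted p = 6.8e-05). Ccn1 read 13.47, 13.06 and 13.42 with TGF-b1, against 12.07, 12.45 and 12.31 without, and rose by 1.04 ± 0.18 (adjusted p = 0.00127). The groups did not overlap for either gene, and the change was larger than the spread between replicates in both.

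Sparc, which encodes a collagen-binding matricellular protein, showed a smaller and tight change. Its values were 13.17, 13.06 and 13.12 with TGF-b1, against 12.53, 12.60 and 12.47 without. The log2 change of 0.58 ± 0.07, or 1.50-fold (adjusted p = 7.6e-05), was matched on its other probe set at 0.58 ± 0.07. The plot of NM18 values by array shows how far the TGF-b1 arrays stood from the controls for each gene.

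**Figure D1:**
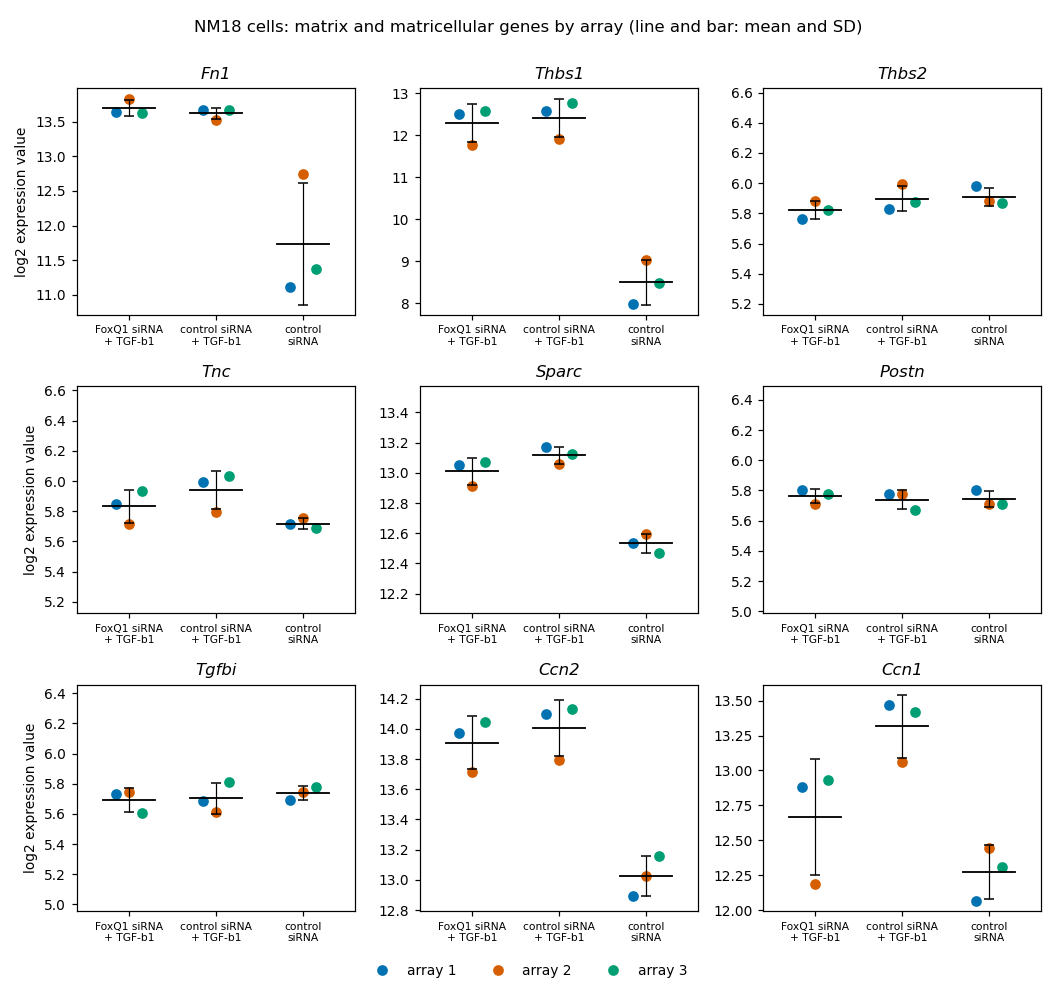
Log2 expression values of the 9 measured genes on the 9 NM18 arrays, 1 panel per gene, with FoxQ1 siRNA and TGF-b1, control siRNA and TGF-b1, and control siRNA alone on the horizontal axis. Each point is an array, coloured by replicate number, with a line at the group mean and a bar for the SD. Thbs1 lies between 11.91 and 12.78 with control siRNA and TGF-b1 and between 7.98 and 9.03 with control siRNA alone. With FoxQ1 siRNA and TGF-b1 it lies between 11.77 and 12.57. The groups overlap for Thbs2, Postn and Tgfbi.

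The promoter windows of Ccn1 and Sparc are shown because, of the genes called at 40 h, only these had a window. They are the 250 bases before the RefSeq start (GRCm38.p6), at chr3:145649986-145650235 for Ccn1 and chr11:55420081-55420330 for Sparc, both on the minus strand and written 5′ to 3′, with motif matches in capitals.
Ccn1: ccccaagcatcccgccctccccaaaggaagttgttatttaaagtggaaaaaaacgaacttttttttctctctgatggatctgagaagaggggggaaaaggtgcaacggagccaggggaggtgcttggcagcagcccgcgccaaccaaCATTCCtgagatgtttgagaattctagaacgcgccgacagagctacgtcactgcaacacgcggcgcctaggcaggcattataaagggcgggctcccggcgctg
Sparc: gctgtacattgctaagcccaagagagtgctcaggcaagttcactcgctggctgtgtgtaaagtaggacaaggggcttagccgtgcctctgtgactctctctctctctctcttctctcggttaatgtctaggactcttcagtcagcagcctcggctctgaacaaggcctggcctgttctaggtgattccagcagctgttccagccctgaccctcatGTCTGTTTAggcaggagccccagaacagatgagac
The motifs searched on both strands were CAGAC (the SMAD box), GGAATG (the TEAD core), TGANTCA (AP-1) and TGTTTA (the forkhead core). In Ccn1 the capitals mark a TEAD core, read as CATTCC on this strand, that begins 103 bases before the start. In Sparc they mark a SMAD box, read as GTCTG and beginning 35 bases before the start, that overlaps a forkhead core beginning 32 bases before it. Among all 32851 windows of 250 bases before to 50 bases after a start, 49.6% held the SMAD box, 14.7% the TEAD core, 13.4% the forkhead core and 7.81% the AP-1 motif. In windows of that length, Ccn1 held a SMAD box only after the start, and Sparc held a further SMAD box there. The Ccn1 window held no forkhead core, and the Sparc window held no TEAD core. Windows were found for 7 of the 10 genes. No window of the other 5 (Thbs2, Tnc, Postn, Tgfbi and Fbn1) held a TEAD, AP-1 or forkhead match, and Thbs2, Tnc, Postn and Tgfbi held a SMAD box in at least 1 window. Fn1, Thbs1 and Ccn2 had none in the table. A match is a description of these letters and does not show binding.

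The other 4 measured genes were not called at 40 h. Tnc, tenascin-C, an anti-adhesive glycoprotein, read 5.99, 5.80 and 6.04 with TGF-b1, against 5.71, 5.75 and 5.69 without. The arrays did not overlap, and the change of 0.22 ± 0.08 had an adjusted p of 0.0566. With the replicate number as a block it was 0.22 ± 0.07 with an adjusted p of 0.0251, in a fit that called 38.6% of all genes and 17% higher. It was also called without control siRNA and TGF-b1 array 2 (0.29, adjusted p = 0.0202) and without FoxQ1 siRNA array 2 (0.22, adjusted p = 0.0409). Postn, periostin, which binds collagen and integrins, averaged 5.74 ± 0.06 with TGF-b1 and 5.74 ± 0.05 without, with a 95% interval of -0.14 to 0.14 for the change. Tgfbi, an RGD-containing matrix protein named for its induction by TGF-b, averaged 5.70 ± 0.10 with TGF-b1 and 5.74 ± 0.04 without. Its change of -0.04 had a 95% interval of -0.19 to 0.12, and its 3 other probe sets changed by between -0.03 and 0.01. Tnc was as dim as Thbs2, Postn and Tgfbi, averaging 5.83 over all NM18 arrays. No detection calls were used, so it is not established that any of these genes gave signal above background in NM18 cells.

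**Figure D2:**
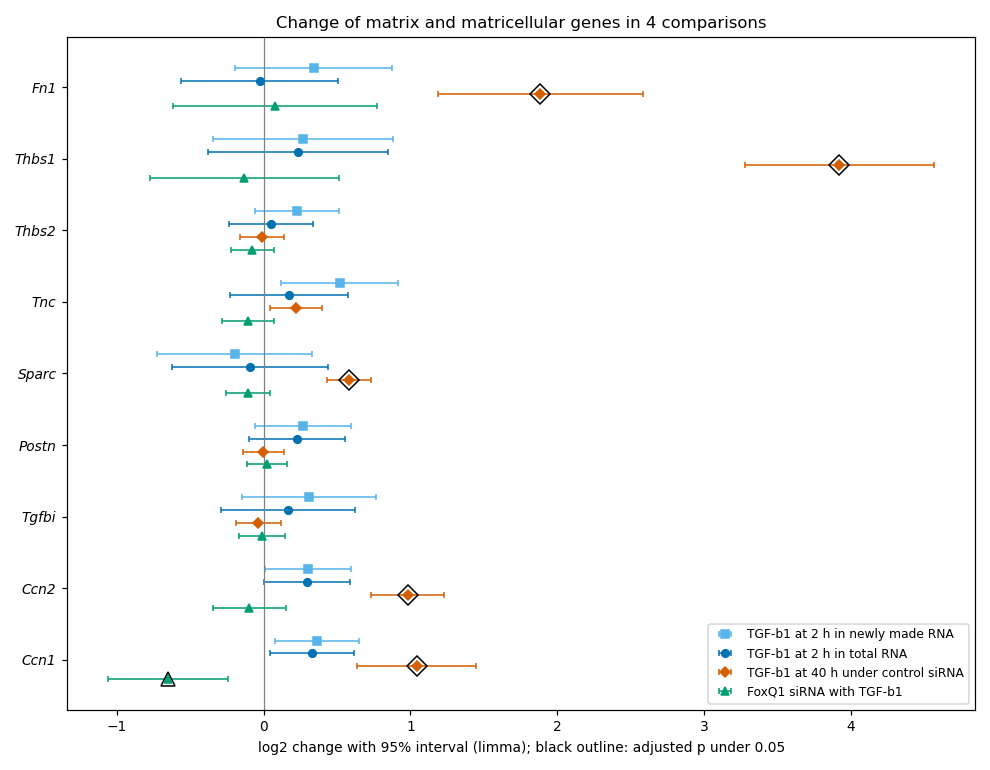
Log2 change of the 9 measured genes (horizontal axis) with its 95% interval from limma, in 4 comparisons shown by colour and marker, the comparisons within a cell line sharing 1 fit. A black outline marks an adjusted p under 0.05. The outlined points are Thbs1, Fn1, Ccn1, Ccn2 and Sparc for TGF-b1 at 40 h and Ccn1 for FoxQ1 siRNA.

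With FoxQ1 siRNA in TGF-b1-treated NM18 cells Ccn1 was lower, and the other 8 measured genes did not pass the test. Thus 1 of the 9 was called lower and none higher, where 19.6% of all genes were called and 8.28% were called lower. The median change of the 9 genes was -0.10, and that of all genes was 0.00. This comparison shares the control siRNA and TGF-b1 arrays with that of TGF-b1 at 40 h, with opposite sign. Opposite changes of a gene in them are therefore not independent. The called gene was Ccn1. It read 12.88, 12.19 and 12.93 with FoxQ1 siRNA and TGF-b1, against 13.47, 13.06 and 13.42 with control siRNA and TGF-b1. All 3 FoxQ1 siRNA arrays were below all 3 control siRNA arrays, as was the case for 15.5% of all genes, and array 2 was the lowest in both groups.

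The Ccn1 change was -0.65 ± 0.18, a level 0.637 times that with control siRNA (adjusted p = 0.0293), and its other probe set changed by -0.83 ± 0.22 (adjusted p over all probe sets = 0.0260). The suffix of the probe set that stands for Ccn1 marks probes that may also match other sequences, and that of the other does not. With the replicate block the adjusted p was 0.0154, in a fit that called 28.4% of all genes. The call was lost without FoxQ1 siRNA array 2 (-0.41, adjusted p = 0.0597) and without control siRNA and TGF-b1 array 1 (-0.57, adjusted p = 0.117) or array 3 (-0.60, adjusted p = 0.0945). The change was negative on every such refit.

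Among the other genes that rose with TGF-b1, Thbs1 read 12.52, 11.77 and 12.57 with FoxQ1 siRNA, against 12.57, 11.91 and 12.78 with control siRNA. The change of -0.13 ± 0.29 had a 95% interval of -0.78 to 0.51. Fn1 read 13.64, 13.84 and 13.63 with FoxQ1 siRNA, against 13.67, 13.53 and 13.68 with control siRNA. The groups overlapped, and the change of 0.08 ± 0.32 had a 95% interval of -0.62 to 0.77. Ccn2 read 13.97, 13.71 and 14.04 with FoxQ1 siRNA, against 14.10, 13.80 and 14.13 with control siRNA, a change of -0.10 with a 95% interval of -0.35 to 0.15. Sparc changed by -0.10, with a 95% interval of -0.25 to 0.05. None of these intervals reaches the size of the gene's own TGF-b1 change, and each includes 0. The other probe sets changed by 0.38 ± 0.33 for Fn1, -0.16 ± 0.30 for Thbs1 and -0.13 ± 0.07 for Sparc, and none was called. The Sparc groups did not overlap on that probe set. In these arrays Fn1 read 13.53 to 13.84 and Ccn2 13.71 to 14.13, while the highest NM18 value of any probe set was 14.6. Whether the top of the scale limited their change was not tested.

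The FoxQ1 siRNA arrays with TGF-b1 were also set against control siRNA alone, a comparison that shares its arrays with the other NM18 comparisons. Here 4 of the 9 genes were called higher and none lower, where 37.9% of all genes were called and 19.3% were called higher. The same 4 genes had every FoxQ1 siRNA array above every control array, as was the case for 23% of all genes. Thbs1 changed by 3.79 ± 0.29, Fn1 by 1.96 ± 0.32, Ccn2 by 0.88 ± 0.11 and Sparc by 0.48 ± 0.07. Ccn1 changed by 0.39 ± 0.18 and was not called (adjusted p = 0.129). Its arrays overlapped, since FoxQ1 siRNA array 2, at 12.19, lay within the control range of 12.07 to 12.45. Without that array the change was 0.63 (adjusted p = 0.00328).

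Ccn4 (WISP1), a further CCN gene first described as a target of Wnt signalling, moved in both NM18 comparisons. It read 11.04, 10.60 and 11.31 with FoxQ1 siRNA and TGF-b1, against 11.85 to 12.13 with control siRNA and TGF-b1 and 10.24, 10.82 and 10.52 with control siRNA alone. It rose by 1.47 ± 0.18 with TGF-b1 (adjusted p = 9.19e-05) and fell by a log2 change of -1.01 ± 0.18 with FoxQ1 siRNA (adjusted p = 0.00206). It was the only called gene of the 3 measured on that list in either comparison. Of the 4 measured thrombospondins and tenascins outside the 9 genes, Thbs3 alone was called, at -0.39 with TGF-b1 and 0.41 with FoxQ1 siRNA. For Ccn4, Thbs3 and the list genes below, both changes rest on the same control siRNA and TGF-b1 arrays. Opposite moves are not separate observations.

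The genes around these proteins were counted from lists, beside 13.2% of all genes called higher and 17.5% called lower with TGF-b1 at 40 h, and 11.3% called higher and 8.28% called lower with FoxQ1 siRNA. Of 10 measured relatives of SPARC, periostin and osteopontin, Stab1, a scavenger receptor that takes up SPARC, was called at 40 h (0.53), and none was called with FoxQ1 siRNA. Of 15 measured fibrillin, fibulin and elastic fibre genes, 2 rose with TGF-b1, Fbln2 by 1.57 and Ltbp1, which holds latent TGF-b in the matrix, by 1.61, and Ltbp3 rose by 0.35 with FoxQ1 siRNA. Of 14 measured YAP and TEAD targets other than the CCN genes, 8 rose and 1 fell with TGF-b1. They included F3, tissue factor, at 1.28 and Dlc1 at 0.86, while Wwc1, a Hippo pathway scaffold, fell at -0.45. With FoxQ1 siRNA 4 of the 14 fell and none rose. These were Dlc1 at -0.60, Ajuba at -0.39, F3 at -0.55 and Amotl2 at -0.67. The list had a median change of -0.24, and the median over all genes was 0.00.

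Receptors of fibronectin, thrombospondins and matricellular proteins were also measured in NM18 cells. Of 17 measured receptor genes, 7 rose and none fell with TGF-b1 at 40 h, where 13.2% of all genes were called higher and 17.5% lower, and the list median was 0.20. Itga5, which pairs with the beta 1 integrin to form the main fibronectin receptor, read 8.31, 8.15 and 8.48 with TGF-b1, against 6.89, 6.97 and 6.89 without, and rose by 1.40 ± 0.09. Its partner Itgb1 rose by 0.58, and Itgb5, a vitronectin receptor subunit, by 1.08. The others that rose were Itgav, Egfr, Itgb3 and Cd47, the last a thrombospondin-1 receptor.

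With FoxQ1 siRNA 5 of the 17 receptor genes rose and 1 fell, where 11.3% of all genes were called higher and 8.28% lower. Itga5 read 8.92, 8.72 and 8.99 with FoxQ1 siRNA, above all 3 control siRNA and TGF-b1 arrays, a further change of 0.56 ± 0.09 (adjusted p = 0.00159). Itgb6, a subunit of an epithelial integrin that binds fibronectin and activates latent TGF-b, was the 1 that fell. It read 7.67, 7.29 and 7.60 with FoxQ1 siRNA and TGF-b1, against 8.77, 8.93 and 8.50 with control siRNA and TGF-b1 and 8.35 to 8.68 with control siRNA alone. The change was -1.21 ± 0.13 (adjusted p = 8.07e-05). The remaining receptors that rose were Itgb5 by 0.40, Lrp1 by 0.92, Itgb3 by 0.34 and Sdc4, a heparan sulphate co-receptor for fibronectin, by 0.30.

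**Figure D3:**
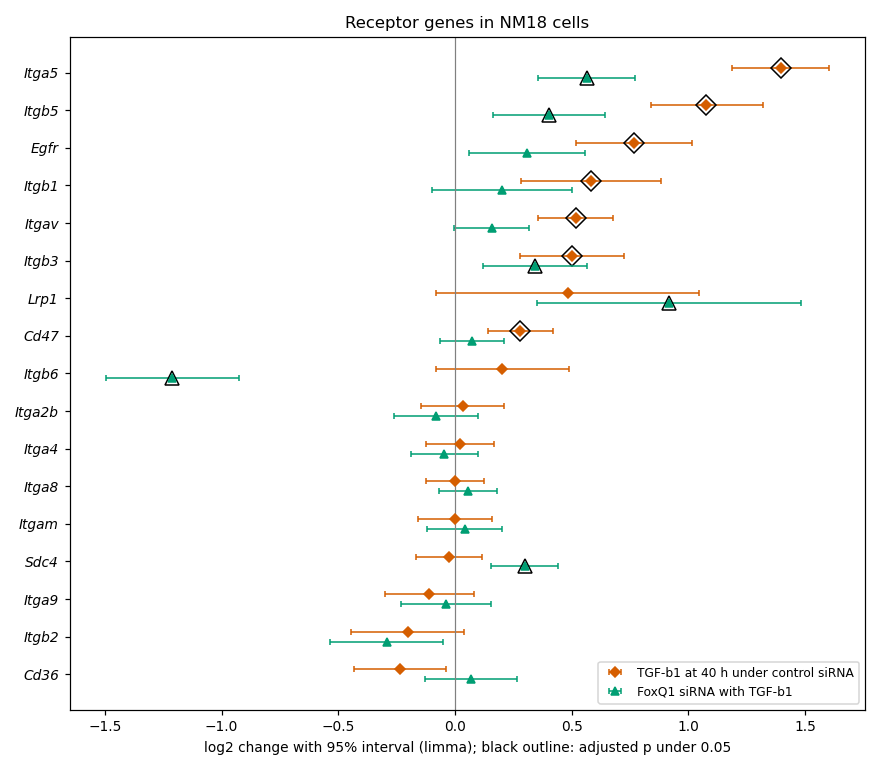
Log2 change of receptor genes of fibronectin, thrombospondins and matricellular proteins in NM18 cells (horizontal axis) with its 95% interval from limma, for TGF-b1 at 40 h and for FoxQ1 siRNA with TGF-b1. A black outline marks an adjusted p under 0.05. Itga5 lies at 1.40 for TGF-b1 and 0.56 for FoxQ1 siRNA, and Itgb6 lies at -1.21 for FoxQ1 siRNA.

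Markers of other cell types were counted beside these genes. Of all genes, 13.2% were called higher and 17.5% lower with TGF-b1, and 11.3% higher and 8.28% lower with FoxQ1 siRNA. Of 8 fibroblast markers, Col1a1 alone was called with TGF-b1 (0.91), and the mean of the list ran from 6.03 to 6.07 with TGF-b1, against 5.84 to 5.92 without. Of 6 leukocyte markers, Csf1r (0.36) and Cd3e (0.20) were called with TGF-b1, with list means of 6.44 to 6.48 with TGF-b1, against 6.35 to 6.43 without. With FoxQ1 siRNA Ptprc (0.35) and Cd68 (0.50) were called, with list means of 6.50 to 6.60 with FoxQ1 siRNA, against 6.44 to 6.48 with control siRNA. No detection calls were used, so signal above background is not established for these leukocyte markers. None of 5 endothelial markers was called in either comparison. Of 8 epithelial markers, Cdh1, E-cadherin, fell with TGF-b1 at -1.04 and Cldn4 rose at 1.85, and Cdh1, Epcam and Cldn4 rose with FoxQ1 siRNA at 1.05, 0.66 and 0.70. The epithelial list means ran from 10.13 to 10.18 with FoxQ1 siRNA and TGF-b1, against 9.72 to 9.91 with control siRNA and TGF-b1 and 9.67 to 9.73 with control siRNA alone, with no overlap between FoxQ1 siRNA and the others. The part of any other cell type in the results above was not tested.

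At 2 h in NMuMG cells none of the 9 genes was called in newly made RNA, where 6.13% of all genes were called and 3.35% were called higher. At an unadjusted p under 0.05 there were 3 genes, Tnc, Ccn1 and Ccn2. The median change of the 9 genes was 0.30, and that of all genes was -0.01. In 3 genes, Ccn1, Ccn2 and Tgfbi, all TGF-b1 arrays lay above all control arrays, as was the case for 8.45% of all genes. No label says that a replicate number marks a shared culture. With the replicate number as a block within each kind of RNA, 2 of the 9 genes were called higher, Tnc and Ccn1. That fit called 12.8% of all genes and 6.16% higher.

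Tnc in newly made RNA read 7.33, 7.61 and 7.92 with TGF-b1, against 6.70, 7.17 and 7.44 in control cells. The groups overlapped, yet the TGF-b1 array was higher within each of the 3 replicate numbers. The change was 0.52 ± 0.19 (adjusted p = 0.147), and with the block 0.52 ± 0.11 (adjusted p = 0.00183). Ccn1 read 11.97, 11.93 and 11.78 with TGF-b1, against 11.75, 11.44 and 11.39 in control cells. Its change was 0.36 ± 0.13 (adjusted p = 0.162), and with the block 0.36 ± 0.11 (adjusted p = 0.0289). Without control array 1, the highest control array for Ccn1, the change was 0.47 (adjusted p = 0.0497 with no block).

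Ccn2 in newly made RNA read 13.62, 13.94 and 13.71 with TGF-b1, against 13.40, 13.45 and 13.52 in control cells, a change of 0.30 ± 0.14 (adjusted p = 0.303). Fn1 read 10.68, 11.61 and 11.46 with TGF-b1, against 10.29, 11.09 and 11.35 in control cells. Array 1 was the lowest for Fn1 in both groups, and the change of 0.34 ± 0.25 had a 95% interval of -0.19 to 0.88. Thbs1 read 10.08, 9.71 and 10.36 with TGF-b1, against 9.66, 10.65 and 9.03 in control cells. The control arrays spanned more than the treated ones, and the change of 0.27 ± 0.29 had a 95% interval of -0.34 to 0.88. On the probe set that stands for Thbs1 a single array set the sign. The change ran from -0.11 to 0.71 as arrays were left out in turn, the highest without control array 2. Sparc changed by -0.20 ± 0.25, Tgfbi by 0.31, Postn by 0.27 and Thbs2 by 0.23, each short of the threshold with and without the block.

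In total RNA at 2 h none of the 9 genes was called, where 2.48% of all genes were called. Past an unadjusted p of 0.05 were Ccn1 and Ccn2, the same 2 genes whose groups did not overlap, and 7.35% of all genes had TGF-b1 arrays entirely above the controls. Ccn1 read 12.02, 11.79 and 11.82 with TGF-b1, against 11.70, 11.32 and 11.62 in control cells, a change of 0.33 ± 0.13 (adjusted p = 0.371). Ccn2 read 13.54, 13.50 and 13.53 with TGF-b1, against 13.32, 12.90 and 13.46 in control cells, a change of 0.29 ± 0.14 (adjusted p = 0.513). Fn1 read 12.05, 12.29 and 12.16 with TGF-b1, against 11.93, 12.19 and 12.46 in control cells, and the groups overlapped with a change of -0.03 ± 0.25. The remaining 6 genes changed by between -0.09 and 0.24. The difference between the newly made and the total RNA response was called for none of the 9 genes, with 0 past an unadjusted p of 0.05 by limma, where 0.066% of all genes were called.

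**Figure D4:**
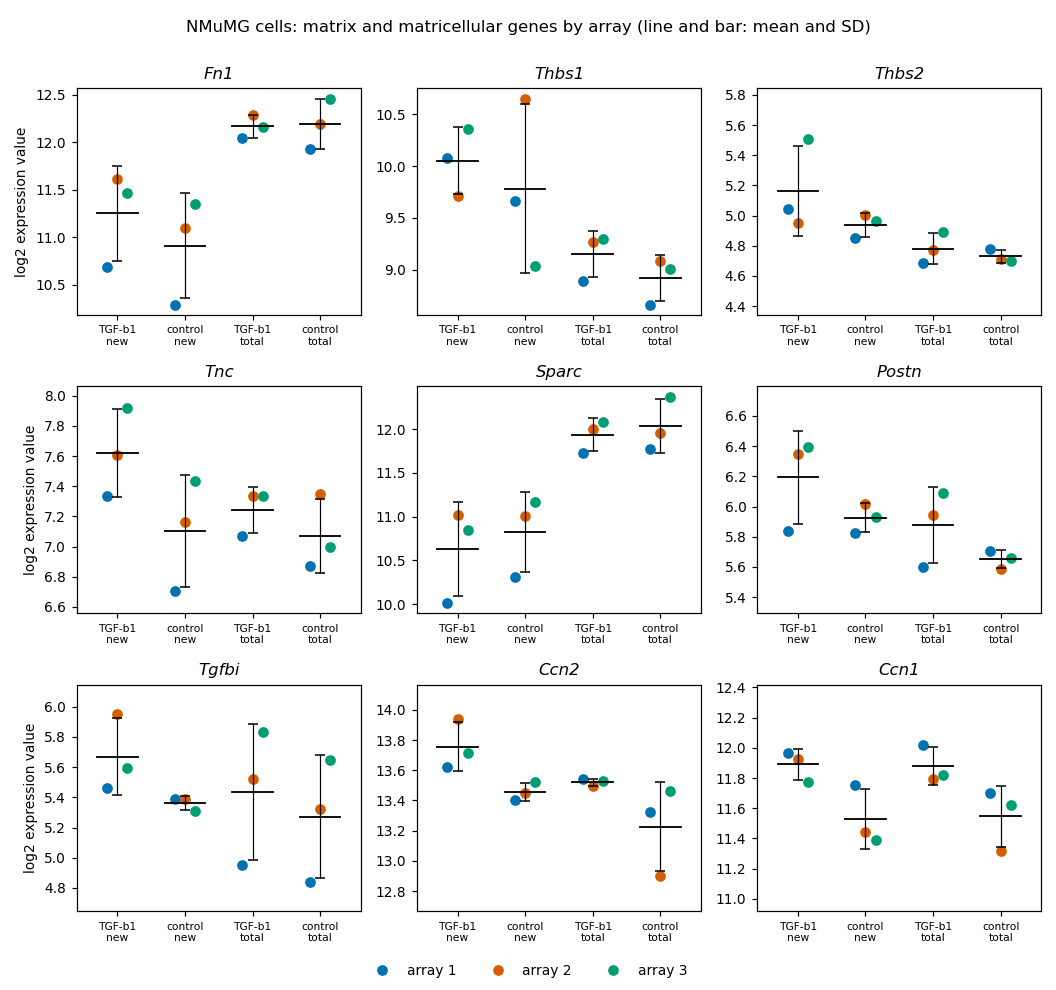
Log2 expression values of the 9 measured genes on the 12 NMuMG arrays, 1 panel per gene, with newly made RNA from TGF-b1 and control cells and total RNA from TGF-b1 and control cells on the horizontal axis. Each point is an array, coloured by replicate number, with a line at the group mean and a bar for the SD. In newly made RNA, Fn1 lies between 10.68 and 11.61 with TGF-b1 and between 10.29 and 11.35 in control cells, and array 1 is the lowest for Fn1, Sparc and Tnc in both groups.

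Other genes of the same lists were called at 2 h, when 3.35% of all genes were called higher and 2.79% lower in newly made RNA, and 1.46% higher and 1.02% lower in total RNA. Ccn4 rose by 1.02 ± 0.15 in newly made RNA (adjusted p = 0.000334) and in total RNA by 1.04 ± 0.15 (adjusted p = 0.000487), the only called gene of the 4 measured on its list. In newly made RNA 3 of 10 relatives of SPARC, periostin and osteopontin rose, Fstl1 by 1.52, Stab1 by 0.71 and Smoc2 by 0.64. Of 16 fibrillin, fibulin and elastic fibre genes 3 rose, the latent TGF-b binding proteins Ltbp2 by 1.40, Ltbp1 by 0.95 and Ltbp3 by 0.86, and Efemp1, a fibulin, fell at -0.93. Of 6 other thrombospondins and tenascins, Thbs3 fell at -0.59. Of 18 receptor genes 4 rose, Itgb3 by 1.41, Itgb5 by 0.95, Itga5 by 0.79 and Itgav by 0.56, and of 17 other YAP and TEAD targets 5 rose, Gadd45a by 1.65 and F3 by 0.96 among them.

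In total RNA at 2 h none of the 18 receptors was called, and neither was any gene of the SPARC-like, fibrillin or thrombospondin lists. The difference between the newly made and the total RNA response was called for no gene of these lists, where 0.066% of all genes were called. A call in newly made RNA alone is therefore not a shown difference from total RNA. Of the 17 YAP and TEAD targets 3 rose, Gadd45a by 1.77, Nuak2 by 0.83 and F3, while Ankrd1, a cardiac ankyrin repeat protein, fell at -0.71. Col1a1 (0.79 in newly made RNA) was the only called marker among 8 fibroblast, 5 endothelial and 6 leukocyte markers at 2 h, and among 8 epithelial markers Cldn4 rose, by 1.01 when newly made and by 1.62 in total.

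Newly made RNA was also set against total RNA in control NMuMG cells, which compares what was labelled in 2 h with what had accumulated. Of the 9 genes 1 was called higher and 2 lower, where 44% of all genes were called, 17.2% higher and 26.8% lower. Over all genes 3131 were called higher and 4877 lower, with a median change of -0.08. With each array centred on its median, 2248 were called higher and 9297 lower, with a median change of -0.33, and both Fn1 and Sparc were still called lower. Fn1 read 10.29, 11.09 and 11.35 in newly made RNA, against 11.93, 12.19 and 12.46 in total RNA, a change of -1.28 ± 0.25 (adjusted p = 0.000457). Sparc read between 10.31 and 11.16 in newly made RNA, against 11.77, 11.96 and 12.37 in total RNA, a change of -1.21 ± 0.25 (adjusted p = 0.000718). Both genes were lower on every newly made array than on any total array, as was the case for 31.4% of all genes. In the other direction Thbs2 and Postn, neither called, did not overlap, and 18.7% of all genes lay that way. Thbs1 read 9.66, 10.65 and 9.03 in newly made RNA, against 8.66, 9.08 and 9.01 in total RNA, a change of 0.86 ± 0.29 (adjusted p = 0.0223). The groups overlapped, and the call was lost without newly made array 2 (0.43, adjusted p = 0.141) or total array 1 (0.74, adjusted p = 0.0870), and with each array centred on its median (0.62, adjusted p = 0.0723). Ccn2 changed by 0.23 and was not called, but after quantile normalization it changed by 0.81 (adjusted p = 5.39e-06).

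Probe sets of the same gene disagreed in this comparison, so its directions hold for a probe set and not for a gene. The second Fn1 probe set read 8.36, 8.35 and 8.95 in newly made RNA, against 5.75, 6.37 and 6.32 in total RNA, a change of 2.40 ± 0.21 in the opposite direction. Tnc changed by 0.03 on the probe set that stands for it and by 1.91 ± 0.26 on the other. The 4 Ccn1 probe sets changed by -0.02, -0.12, 1.01 and 1.02, and the 4 Tgfbi probe sets by 0.09, -0.29, -0.79 and -0.91. Of the 3 Sparc probe sets the bright ones changed by -1.21 and -1.26 and the dimmest by 0.33, which was not called (adjusted p = 0.0605). The cause of the disagreement was not tested. Every probe set used of the 5 genes called at 40 h in NM18 cells was called in the same direction. The Ccn1 probe sets at 1.01 and 1.02 and the Sparc probe set at 0.33 were not among those measured in NM18 cells. Ccn2 had only 1 probe set.

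**Figure D5:**
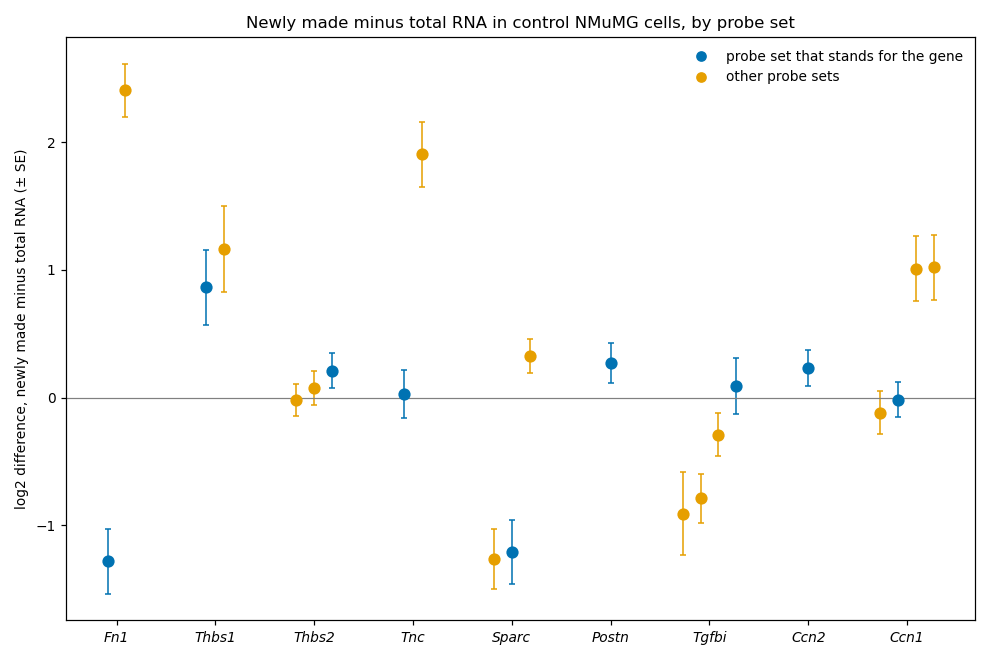
Log2 difference of newly made minus total RNA in control NMuMG cells (vertical axis, ± SE) for every probe set of the 9 measured genes. The probe set that stands for the gene is blue and the others are orange. The Fn1 probe sets lie at -1.28 and 2.40, on opposite sides of 0.

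Further probe sets were also read for the response to TGF-b1 at 2 h. In total RNA the second Fn1 probe set read 6.44, 7.11 and 6.64 with TGF-b1, against 5.75, 6.37 and 6.32 in control cells, with no overlap and a change of 0.58 (adjusted p over all probe sets = 0.32). In newly made RNA it read 8.93, 9.07 and 9.31 with TGF-b1, against 8.36, 8.35 and 8.95 in control cells, a change of 0.55 (adjusted p over all probe sets = 0.198). Neither was called, and the difference between the Fn1 probe sets was not tested. The second Thbs1 probe set stood for the gene in NM18 cells. In newly made RNA it read 9.39, 9.71 and 10.44 with TGF-b1, against 8.34, 9.15 and 10.07 in control cells. The TGF-b1 array was higher within each replicate number, and the groups overlapped. Its change was 0.66 ± 0.34 in newly made RNA (adjusted p over all probe sets = 0.42). In total RNA it was 0.62 ± 0.34 with no overlap (adjusted p over all probe sets = 0.71). Neither Thbs1 change was called. The second Tnc probe set changed by 0.21 ± 0.26 in newly made RNA and by -0.17 ± 0.26 in total RNA. Of the 3 further Ccn1 probe sets, 1 changed by 0.50 ± 0.17 in newly made RNA and by 0.45 ± 0.17 in total RNA. The other two changed by 0.15 and 0.16 in newly made RNA and by -0.12 and -0.14 in total RNA, each ± 0.25, and none of these was called. The 3 further Tgfbi probe sets changed by 0.21, 0.33 and 0.92 in newly made RNA. In total RNA they changed by -0.125, 0.05 and 0.17, in the same order. The largest, 0.92 ± 0.32, had an adjusted p over all probe sets of 0.148, and none was called. All Tgfbi probe sets were dim, and signal above background is not established for them. A further Thbs1 probe set in each table was annotated to several genes and was not used.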

How the data were processed

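Per the labels' protocols, NMuMG RNA was amplified with a two-cycle kit and NM18 RNA with a 3′ IVT kit. The authors' deposited tables hold processed values that were read as log2 from their range (2.34 to 14.8 in NMuMG, 4.57 to 14.6 in NM18). The submitters' processing notes name affy 1.18.2, while background correction and normalization are not given in the sources used here. Of 45101 NMuMG and 22690 NM18 probe sets, 34945 and 20380 had 1 gene symbol, from GEO's platform annotation updated through RefSeq. The 932 and 691 with several symbols, the 9160 and 1555 with none and the 64 control probe sets of each table were left out. With limma 3.58.1 in R 4.3.3, all groups of a table shared 1 fit (lmFit, eBayes, two-sided), which was also tested on simulated data. The number of arrays limits the precision. No label says that a replicate number marks a shared culture, so the block was an alternative only. Same-numbered arrays correlated in their deviations from group means by 0.16 to 0.608 in all 9 NM18 pairs. In NMuMG they did so by 0.339 to 0.732 in newly made and 0.122 to 0.407 in total RNA, but by -0.182 to 0.315 across the kinds of RNA. For unlike numbers the ranges were -0.513 to -0.04 in NM18, -0.579 to 0.347 in newly made RNA and -0.258 to 0.003 in total RNA. Alternatives were other scalings, probe set rules, filters, variance models, blocks and single arrays left out. Named genes were the 10 members, Foxq1, Smad7, Skil, up to 4 called genes of each list by smallest p, and the nearest genes in profile. Further genes were named where a count was small, after their values were seen. The members and lists were chosen with earlier results of these data known. Promoter windows are RefSeq's.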

Additional observations from a re-analysis of the deposited data

How the results depend on the processing

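Of 1384 alternative values of single genes, 1236 kept their sign and side of the threshold, 15 newly passed and 9 no longer passed. The sign turned in 115 with no call under either setting and in 9 with a call under at least 1 setting. Those 9 were all in newly made minus total RNA: 0.56 for Fn1, 0.47 for Ccn1 and -0.47 for Tgfbi when all probe sets were averaged, and on another probe set 2.40 for Fn1, 0.33 for Sparc, 1.01 and 1.02 for Ccn1, and -0.79 and -0.91 for Tgfbi. Averaging probe sets called 6 genes there. At 2 h in newly made RNA the replicate block called 1 gene (Tnc), the replicate block within each kind of RNA called 2, and leaving out single arrays gave 0 to 1. With TGF-b1 at 40 h Tnc passed with the replicate block (adjusted p = 0.0251), with the mean over probe sets (0.0496), with an intensity trend (0.0418), without FoxQ1 siRNA array 2 (0.0409), without control siRNA and TGF-b1 array 2 (0.0202) and, an alternative chosen after seeing the data, without replicate 2 in every group (0.0130). The replicate block changed no other call. With FoxQ1 siRNA leaving out single arrays gave 0 to 1 called genes. Leaving out replicate 1 or 3 in every group, an alternative chosen after seeing the data, gave 0. Over all genes the newly made RNA count at 2 h was 2320 with the replicate block within each kind of RNA, 680 on only the arrays compared, and 334 and 617 without replicate 2 and 3 in every group, against 1116 as reported. The total RNA count was 701 with the replicate block, 1025 with it within each kind, and 121 and 225 without replicate 2 and 3, against 452 as reported. The count for the difference between those responses ran from 0 to 86, against 12 as reported. Without replicate 1 and 3 in every group the counts were 2043 and 2334 for TGF-b1 at 40 h, against 3807 as reported, and 926 and 1441 for FoxQ1 siRNA, against 2425 as reported. FoxQ1 siRNA with TGF-b1 against control siRNA alone gave 3044 without replicate 1, against 4695 as reported. The cause was not tested. A fit on only the arrays compared was not run for the difference between responses, which uses every array. No detection calls were used, so signal over background is not known for the dim genes.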

Other observations

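The genes nearest in profile to each gene called in NM18 cells were found by the root mean square difference of centred log2 values over all 9 arrays, among 2780 genes whose group means spanned at least 0.5. For Ccn1 they were Denn2b at 0.083 and Snx15 at 0.136, for Ccn2 Acot9 at 0.0659 and Mrtfa at 0.0916, and for Sparc Hacd2 at 0.0445 and Ammecr1l at 0.0467. For Fn1 the nearest was Csrp1 at 0.261 and for Thbs1 Ak1 at 0.312. The measure grows with a gene's span over the arrays, so distances are not comparable between these genes. The points share their arrays, so these are descriptions of 9 arrays and carry no test.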
